A study of Mus musculus with 18 samples.

Results

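The RNA levels of 6 genes for intermediate filament proteins were followed while mouse neurospheres differentiated into astrocytes with or without TNF. The genes were chosen by name. Gfap, Vim, Nes and Synm encode the cytoplasmic filament proteins GFAP, vimentin, nestin and synemin, and Lmna and Lmnb1 encode lamins A and C and lamin B1 of the nucleus. All 6 were found among the 54838 genes of the counts table, and all 6 were among the 20067 genes that passed the filter on low counts and were tested. RNA-sequencing was performed on 18 cultures in 6 conditions with 3 replicates each. The source was wild type C57BL/6J embryos at day 14, and neural stem cells were taken from the ventricular zone of 1 brain at a time. NSPs (neurospheres, free-floating aggregates of neural stem cells) were proliferating in medium with epidermal growth factor. The other 5 conditions were grown on poly-L-ornithine in 10% fetal bovine serum without that factor, for 24 h or 72 h, each without or with TNF at 50 ng/ml, or for 1 week without TNF. TNF, tumour necrosis factor, is an inflammatory cytokine. The 1 week condition had no TNF-treated counterpart, and the labels do not say whether the 3 replicates of a condition came from separate embryos, so p-values measure the spread between these cultures.

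Intermediate filaments are rope-like polymers that give a cell and its nucleus mechanical strength, and the set of filament proteins is characteristic of a cell's type and stage. Neural stem cells build their cytoplasmic filaments from vimentin and nestin, where nestin needs a partner such as vimentin to polymerise, while astrocytes add GFAP and raise it further in reactive gliosis. Synemin co-assembles with vimentin or GFAP. Lamins line the inner nuclear membrane: B-type lamins are present in nearly all cells, and A-type lamins typically increase as cells differentiate.

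Gfap was the gene with the widest range of levels and Nes was among the genes that fell, so the 250 bases before their RefSeq transcription starts are shown (GRCm38.p6, 5′ to 3′ on the strand of the gene). Capitals mark matches to the 6 motifs searched on both strands, and the Gfap window held none of them.
Gfap, chr11:102897201-102897450, reverse strand: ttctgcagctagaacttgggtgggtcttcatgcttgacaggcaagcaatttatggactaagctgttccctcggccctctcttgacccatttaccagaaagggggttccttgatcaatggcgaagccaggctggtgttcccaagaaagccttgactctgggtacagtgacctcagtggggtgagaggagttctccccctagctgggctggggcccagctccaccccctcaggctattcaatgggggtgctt
Nes, chr3:87970843-87971092, forward strand: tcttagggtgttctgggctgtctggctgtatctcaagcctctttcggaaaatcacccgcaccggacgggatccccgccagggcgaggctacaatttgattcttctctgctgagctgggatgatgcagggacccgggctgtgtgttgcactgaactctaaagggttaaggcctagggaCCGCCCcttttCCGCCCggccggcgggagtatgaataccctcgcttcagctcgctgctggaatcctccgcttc

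Among the 32851 RefSeq promoter windows of this length, the motif TATAAA was found in 12.4%, the motif CCAAT in 33.8%, the motif TGANTCA in 6.75%, the motif TTCNNNGAA in 7.02%, the motif GGGCGG in 32.7% and the NF-kB motif in 7.25%. The Gfap window and both Lmna windows lie inside the genes as GENCODE annotates them, since other annotated transcripts start upstream. The 2 capital stretches of Nes are GGGCGG on the other strand. The Vim window, which lies within the 5′ untranslated region of a longer annotated Vim transcript and is not printed, held a match to TATAAA, matches on each strand to CCAAT and the NF-kB motif. Its NF-kB matches were centred on 2 places, at -223 to -214 on the other strand and at -142 to -132 in matches that overlap each other on both strands. The Synm window held CCAAT on the other strand, and the 2 Lmna windows held CCAAT in one and GGGCGG on the other strand in the other. A match describes the letters of the window and not a binding site.

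Total counts per library ranged from 12509693 to 22549627 (median 16794798). Levels are given in CPM, counts scaled to library size after TMM normalization, unless RPKM, CPM per kilobase of merged exon, is named. The counts behind the lowest value of a member ranged from 55 for Synm to 31433 for Vim. All 7 genes of an astrocyte list had a mean of at least 1 CPM in every condition, NSPs included, and their summed level was 5091 to 5331 CPM in NSPs and 2631 to 3166 CPM at 1 week. Summed levels of marker genes of microglia, endothelium and oligodendrocytes were at most 3.88, 6.75 and 20.3 CPM in any library. Of the fibroblast and mural cell markers, Pdgfrb, Col1a1, Dcn and Lum were under 1 CPM in every library, whereas Acta2 reached 527 CPM. Of the 6 neuronal markers, 5 had a mean of at least 1 CPM in NSPs and at 24 h with TNF, and 6 at 24 h. At 72 h 4 did, and 3 did at 72 h with TNF and at 1 week. Map2 held nearly all of their sum, at up to 2075 CPM, and Snap25, Dcx and Rbfox3 were under 1 CPM in every 1 week library. A total of 3 libraries stood apart in the members: the first replicates of 24 h TNF and 72 h TNF, which were high in Gfap and low in Nes, and the first replicate of NSPs, which was high in Nes and Lmnb1 and low in Gfap. Member values whose call changes without 1 of them, or that then move by over 1.5-fold while called, are also given without it.

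Within 24 h of differentiation all 6 genes changed. Gfap, Synm, Vim and Lmna rose, by 33.1-fold, 5.83-fold, 1.48-fold and 1.48-fold, and Lmnb1 and Nes fell, by 8.67-fold and 1.77-fold (edgeR's quasi-likelihood test over all 18 libraries, Benjamini-Hochberg adjusted p from 2.31e-08 to 0.0202). In this comparison 52.7% of all tested genes were called at the same threshold of 0.05, and the 3 NSPs and the 3 cultures at 24 h did not overlap in 61.5% of all tested genes and in all 6 members. The median log2 fold change was 0.56 over the members and 0.06 over all tested genes. In bulk RNA, fewer cells of a type and less RNA per cell cannot be told apart. At 72 h 5 of the 6 genes differed from NSPs (55.3% of all genes), and at 1 week only Synm, Lmna and Lmnb1 did (58.6% of all genes).

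**Figure D1:**
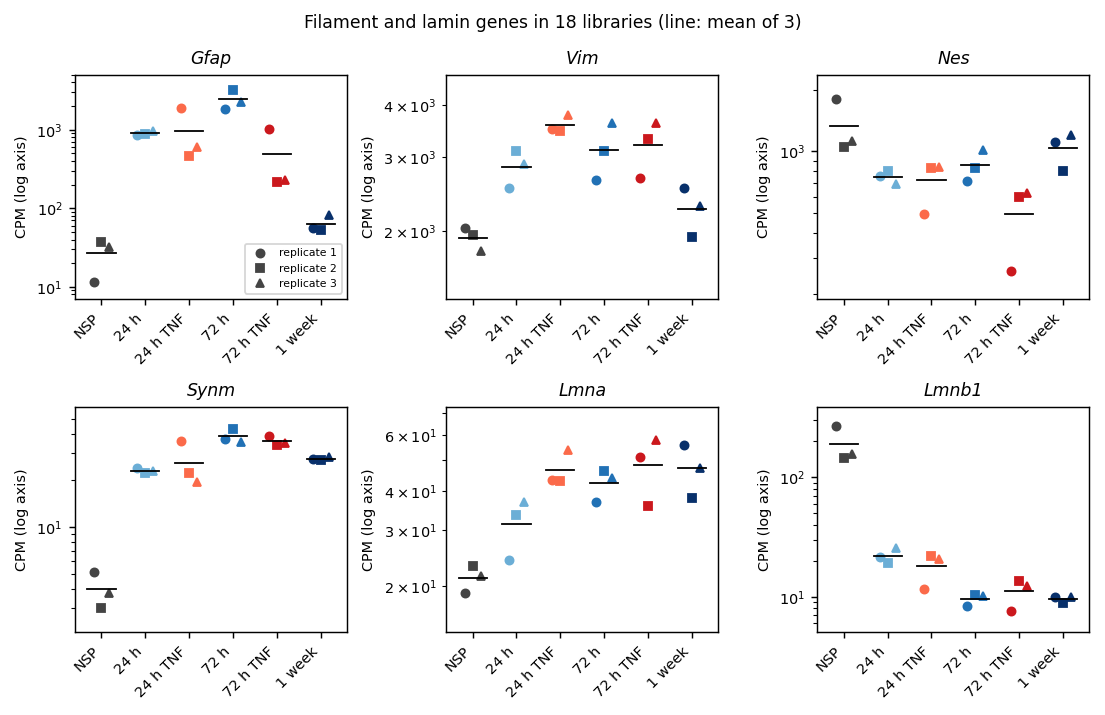
Level of each gene in CPM (log axis) in the 18 libraries, by condition. Symbols are the 3 replicates and the line is their mean. Gfap was highest at 72 h without TNF and 52.7 to 81.6 CPM at 1 week, above the 11.6 to 37.3 CPM of NSPs, while Lmnb1 was at least 146 CPM in NSPs and at most 25.5 CPM in every differentiated culture.

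Gfap, the gene of the main filament protein of mature and reactive astrocytes (ENSMUSG00000020932, chr11:102887336-102900912, reverse strand, GRCm38), rose and then fell back. Its level was 11.6, 37.3 and 32.4 CPM in the 3 NSP replicates, 864, 883 and 949 CPM at 24 h, and 1855, 3172 and 2270 CPM at 72 h. At 1 week it was 55.9, 52.7 and 81.6 CPM. Each time point without TNF was thus separate from the others, with 72 h highest, then 24 h, 1 week and NSPs. The NSP mean was 27.1 ± 13.7 CPM, and the means of differentiating cultures were 899 ± 44.6, 2432 ± 673 and 63.4 ± 15.9 CPM in order of time (SD, n = 3). The log2 fold change was 5.05 ± 0.64 (SE) at 24 h against NSPs (adjusted p = 3.89e-06) and 6.48 ± 0.68 at 72 h against NSPs (adjusted p = 2.44e-07).

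The difference between 72 h and 24 h was 1.44 ± 0.55 on the log2 scale and did not pass the threshold in the fit over all libraries (edgeR, adjusted p = 0.0631). In a fit of those 6 libraries alone its adjusted p was 2e-04. From 72 h to 1 week Gfap fell by 5.26 ± 0.64 on the log2 scale, a 38.4-fold decrease (adjusted p = 5.59e-05). It was the only member called in this comparison, in which 6.63% of all genes were called. The remaining difference between 1 week and NSPs was 1.22 ± 0.56 (adjusted p = 0.0684), although all 3 values at 1 week were above all 3 in NSPs, and the adjusted p was 0.018 when only these 6 libraries were fitted.

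With TNF the Gfap replicates split. At 24 h with TNF the values were 1871, 463 and 596 CPM (977 ± 777, SD, n = 3), so that replicate 1 lay above all cultures at 24 h without TNF and replicates 2 and 3 below them. At 72 h with TNF they were 1022, 217 and 229 CPM (489 ± 461), all below the lowest untreated value of 1855 CPM. Gfap was 4.97-fold lower with TNF at 72 h, with a log2 fold change of -2.31 ± 0.56 (edgeR, adjusted p = 0.0128; 9.56% of all genes were called in this comparison and 5.21% were lower). It was the only member called there. The call was lost when 72 h replicate 2, 72 h TNF replicate 2 or 72 h TNF replicate 3 was left out, with an adjusted p of at most 0.0595 and a log2 fold change of -3.44 to -1.96 over all single libraries left out.

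The fitted Gfap difference at 24 h was 0.12 ± 0.54 (adjusted p = 0.959). Without the first replicates of both TNF conditions, an alternative chosen after seeing the data, it was -0.77 (adjusted p = 0.274), and that at 72 h was -3.45 (adjusted p = 5.06e-06). The difference between the TNF effects at 72 h and at 24 h, tested as an interaction, was -2.43 ± 0.77 on the log2 scale in all libraries (adjusted p = 0.232) and -2.69 without the 2 libraries (adjusted p = 0.00599). Over all genes, 0.458% were called in the interaction. The 2 libraries did not stand apart in Nfkbia, which encodes the inhibitor IkB-alpha and is a direct target of TNF signalling. It was 151, 135 and 161 CPM at 24 h with TNF and 156, 146 and 158 CPM at 72 h with TNF, against at most 26.6 CPM at 72 h without it. A list of 6 TNF response genes summed to 488 to 536 CPM at 24 h with TNF and 371 to 545 CPM at 72 h with TNF. That list was not compared by replicate here. The 2 libraries differed in other genes too, not all in the same direction. Of the 7 genes of the astrocyte list, 5 were highest and 2 lowest in replicate 1 among the 24 h TNF cultures, and 6 were highest and 1 lowest in replicate 1 among the 72 h TNF cultures. The water channel gene Aqp4 was 1056, 478 and 459 CPM in the 3 replicates at 24 h with TNF, the gap junction gene Gja1 was 330, 54.7 and 56.2 CPM, and the glutamate transporter gene Slc1a3 was 2041, 2958 and 2858 CPM. Acta2, the gene of smooth muscle actin and no glial marker, was 90.3, 527 and 493 CPM. The part of these differences in the Gfap result was not tested beyond leaving the libraries out.

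Vim, the gene of vimentin (ENSMUSG00000026728, chr2:13573927-13582826, forward strand), was high throughout and moved little. Its level was 2039, 1956 and 1788 CPM in NSPs, 2538, 3110 and 2883 CPM at 24 h and 2653, 3095 and 3611 CPM at 72 h. It was 2532, 1934 and 2289 CPM at 1 week. NSPs lay below all cultures at 24 h and 72 h and overlapped with 1 week. The log2 fold change against NSPs was 0.56 ± 0.15 at 24 h (edgeR, adjusted p = 0.00415), 0.69 ± 0.15 at 72 h (adjusted p = 0.000638) and 0.22 ± 0.15 at 1 week (adjusted p = 0.203). From 72 h to 1 week it differed by -0.47 ± 0.15 (adjusted p = 0.068 with edgeR and 0.0253 with DESeq2), with no overlap between the 2 groups.

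With TNF, Vim was 3505, 3470 and 3790 CPM at 24 h, above all 3 untreated cultures, and 2676, 3321 and 3615 CPM at 72 h, overlapping with them. The log2 difference was 0.34 ± 0.15 at 24 h (unadjusted p = 0.0362 in edgeR's fit over all genes, adjusted p = 0.311) and 0.04 ± 0.15 at 72 h (adjusted p = 0.901). The first TNF replicates were not apart in Vim, and without them the difference at 24 h was 0.35 (adjusted p = 0.287).

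Nes, the gene of nestin and a classic marker of neural stem cells (ENSMUSG00000004891, chr3:87971078-87980451, forward strand), fell early but was not lost. It was 1798, 1055 and 1127 CPM in NSPs and 753, 796 and 695 CPM at 24 h, so that all cultures at 24 h lay below all NSPs. At 72 h it was 713, 824 and 1020 CPM, and at 1 week 1109, 797 and 1208 CPM. The 1 week cultures overlapped with NSPs. The log2 fold change against NSPs was -0.83 ± 0.28 at 24 h (edgeR, adjusted p = 0.0202), -0.64 ± 0.28 at 72 h (adjusted p = 0.0629) and -0.35 ± 0.28 at 1 week (adjusted p = 0.291). The call at 24 h was lost without NSP replicate 1, 24 h replicate 1 or 24 h replicate 3, with a log2 fold change of -0.97 to -0.55, and DESeq2 called the difference at 72 h (adjusted p = 0.0406).

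The lowest mean of Nes was that with TNF at 72 h, where the values were 260.5, 598 and 625 CPM, all below the 3 untreated cultures. The log2 difference from 72 h was -0.79 ± 0.28 and did not pass the threshold (edgeR, adjusted p = 0.0895 and unadjusted p = 0.0122). Without the first TNF replicates it was -0.49 (adjusted p = 0.182). Against NSPs the decrease in 72 h TNF cultures was 2.68-fold (adjusted p = 0.000322) and passed the threshold whichever library was left out. At 24 h with TNF Nes was 495, 826 and 840 CPM, on both sides of the untreated range, with a log2 difference of -0.05 ± 0.28 (adjusted p = 0.964), and its decrease of 1.84-fold from NSPs (adjusted p = 0.0137) was lost as a call without NSP replicate 1 or 24 h TNF replicate 1.

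Synm, the gene of synemin (ENSMUSG00000030554, chr7:67730160-67759742, reverse strand), rose from a low level and stayed up. It was 5.14, 3.02 and 3.76 CPM in NSPs, 24.2, 22.2 and 22.9 CPM at 24 h and 37.2, 43.1 and 35.2 CPM at 72 h. At 1 week it was 27.3, 27.1 and 28.4 CPM, between 24 h and 72 h. None of these 4 conditions overlapped with another. The log2 fold change against NSPs was 2.54 ± 0.21 at 24 h (edgeR, adjusted p = 2.58e-08), 3.28 ± 0.22 at 72 h (adjusted p = 4.36e-10) and 2.80 ± 0.21 at 1 week (adjusted p = 2.73e-09). From 24 h to 72 h Synm rose by 1.67-fold (adjusted p = 0.00769). Synm was 1 of 2 members called between 24 h and 72 h, where 24.8% of all genes were called, and the drop of 0.48 ± 0.19 on the log2 scale from 72 h to 1 week did not pass (adjusted p = 0.15).

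No Synm difference between cultures with and without TNF passed the threshold. The values were 36.0, 22.2 and 19.6 CPM at 24 h with TNF, where replicate 1 stood above the rest, and 38.7, 33.6 and 34.8 CPM at 72 h with TNF. The log2 differences from the untreated cultures were 0.17 ± 0.19 at 24 h (edgeR, adjusted p = 0.786) and -0.11 ± 0.19 at 72 h (adjusted p = 0.758). The gene shares 84 bases of exon with Ttc23 and 426 bases with Gm45102, both on the opposite strand, out of 7933 bases. The strand setting of the counting is not given in the sources used here.

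**Figure D2:**
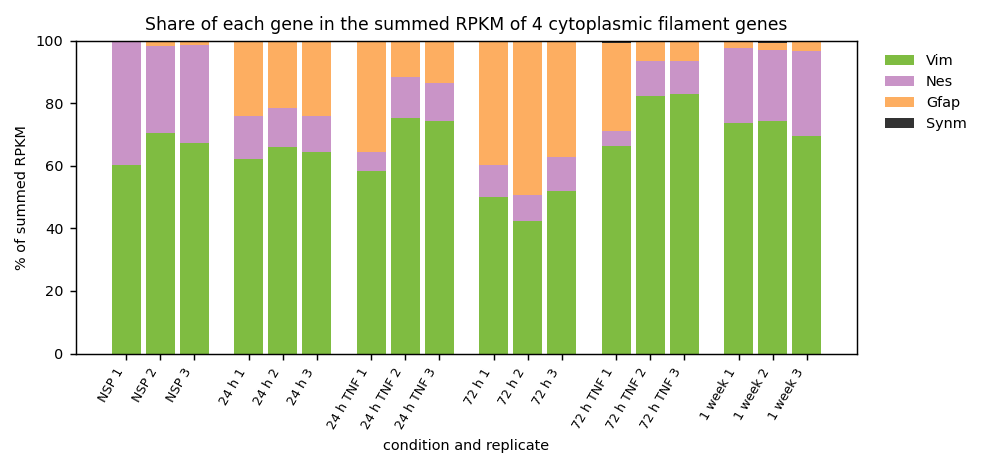
Share of Gfap, Vim, Nes and Synm in their summed RPKM (percent, y axis) for each of the 18 libraries (x axis). Gfap took 36.8 to 48.9% at 72 h, 5.91 to 28.4% at 72 h with TNF and 1.83 to 2.79% at 1 week.

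Levels of different genes were compared per length, in RPKM. Vim was the most abundant of the 6 in NSPs at a mean of 406 RPKM, before Nes at 207, Lmnb1 at 64.3, Gfap at 6.43, Lmna at 3.63 and Synm at 0.501 RPKM. Gfap, Vim, Nes and Synm summed to a mean of 620 RPKM in NSPs, 932 after 24 h, 1372 after 72 h and 655 after 1 week. Of this sum Gfap made up 0.386 to 1.51% in NSPs and 21.1 to 23.8% at 24 h, then 36.8 to 48.9% at 72 h and 1.83 to 2.79% at 1 week. Nes made up 28.1 to 39.3% in NSPs, 11.5 to 13.6% at 24 h and 22.7 to 27.1% at 1 week. At 72 h without TNF the Gfap level per length was 0.707 to 1.15 times that of Vim, with 72 h replicate 2 the only library of the 18 in which Gfap exceeded Vim. The filament RNA of 1 week cultures was again mostly Vim, at 69.6 to 74.4% of the sum, against 60.2 to 70.4% in NSPs. In the 72 h TNF cultures Vim made up 66.2, 82.5 and 83.0% and Gfap 28.4, 6.06 and 5.91%, the first replicate apart from the other two.

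Lmna, the gene of lamins A and C, which its counts do not separate (ENSMUSG00000028063, chr3:88480147-88509956, reverse strand), rose in the course of differentiation, by 1.99-fold at 72 h. Its level was 19.0, 23.1 and 21.5 CPM in NSPs, 24.2, 33.4 and 36.7 CPM at 24 h and 36.9, 46.1 and 43.9 CPM at 72 h. At 1 week it was 55.8, 38.0 and 47.3 CPM. All NSP values lay below all differentiated ones. The log2 fold change against NSPs was 0.57 ± 0.19 at 24 h (edgeR, adjusted p = 0.0187), 0.99 ± 0.19 at 72 h (adjusted p = 0.000228) and 1.15 ± 0.19 at 1 week (adjusted p = 4.85e-05). The call at 24 h was lost without NSP replicate 1, 24 h replicate 2 or 24 h replicate 3 (log2 fold change 0.44 to 0.72), and the later ones passed whichever library was left out.

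With TNF, Lmna was 43.1, 42.9 and 53.9 CPM at 24 h, above the highest untreated value of 36.7 CPM. The log2 difference was 0.57 ± 0.19, a 1.48-fold higher level, with an unadjusted p of 0.00736 and an adjusted p of 0.126 in edgeR and 0.0905 in DESeq2. It was thus not called, and it was 0.62 without the first TNF replicates (adjusted p = 0.141). At 72 h with TNF the values of 51.0, 35.7 and 57.7 CPM overlapped with the untreated ones (log2 difference 0.19 ± 0.19, adjusted p = 0.566). The groups did not overlap at 24 h in 20.8% of all tested genes, and in 2 members, Vim and Lmna.

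Lmnb1, the gene of lamin B1 (ENSMUSG00000024590, chr18:56707813-56753424, forward strand), fell the most. It was 269, 146 and 158 CPM in NSPs, 21.5, 19.1 and 25.5 CPM at 24 h and 8.40, 10.2 and 10.2 CPM at 72 h. At 1 week it was 9.94, 8.93 and 9.86 CPM, within the range at 72 h. Most of the decrease fell within the first 24 h, and the rest before 72 h. The log2 fold change was -3.12 ± 0.26 at 24 h against NSPs (edgeR, adjusted p = 2.31e-08), -1.19 ± 0.26 at 72 h against 24 h (adjusted p = 0.00217) and -0.01 ± 0.26 at 1 week against 72 h (adjusted p = 0.994). At 1 week Lmnb1 was 19.9-fold below NSPs (adjusted p = 2.58e-10). None of the calls against NSPs was lost without NSP replicate 1, although the log2 fold change at 24 h was then -2.79, its smallest size among the single libraries left out.

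No Lmnb1 difference between cultures with and without TNF passed the threshold. The values were 11.6, 21.9 and 20.5 CPM at 24 h with TNF and 7.61, 13.5 and 12.3 CPM at 72 h with TNF, the first replicate lowest in both. The log2 differences from untreated cultures were -0.29 ± 0.25 at 24 h (edgeR, adjusted p = 0.703) and 0.21 ± 0.26 at 72 h (adjusted p = 0.661).

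**Figure D3:**
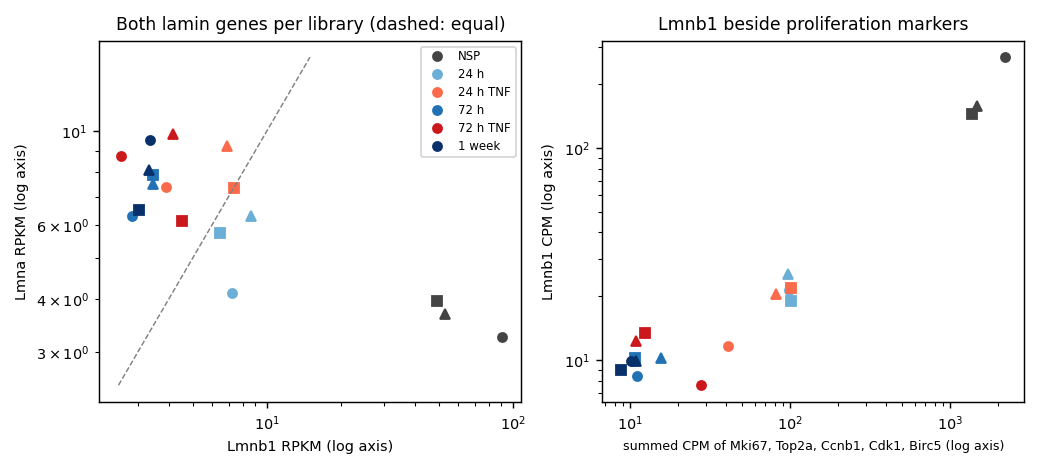
Left, RPKM of Lmna against that of Lmnb1 per library (both axes log, colour by condition, symbol by replicate, dashed line at equal levels). Right, CPM of Lmnb1 against the summed CPM of 5 proliferation markers (both axes log). Lmnb1 exceeded Lmna 12.4-fold to 27.8-fold in NSPs and was below it in every culture at 72 h and 1 week.

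Per length, Lmnb1 was 12.4 to 27.8 times Lmna in NSPs. At 24 h the ratio of Lmna to Lmnb1 was 0.572 to 0.890, and it was 2.19 to 2.28 at 72 h and 2.16 to 2.85 at 1 week. It was 0.992 to 1.89 at 24 h with TNF and 1.35 to 3.40 at 72 h with TNF. Lmna was therefore the more abundant lamin gene of the pair in all 9 cultures at 72 h and 1 week, with or without TNF, and Lmnb1 in all NSPs and all untreated 24 h cultures.

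Markers of dividing cells moved beside Lmnb1. Mki67, Top2a, Ccnb1, Cdk1 and Birc5, which encode proteins of the cell cycle, summed to 1365 to 2211 CPM in NSPs and 97.1 to 102 CPM at 24 h, then 10.7 to 15.5 CPM at 72 h and 8.82 to 10.9 CPM at 1 week. NSP replicate 1 was highest in Lmnb1 and also in Top2a, at 1180 CPM against 611 and 684 CPM. Among the 24 h TNF cultures, replicate 1 was lowest in Lmnb1 and in the summed markers, at 40.8 CPM against up to 101 CPM. At 72 h with TNF the first replicate was lowest in Lmnb1 but highest in the summed markers (27.7 CPM). The part of cell division in the Lmnb1 levels was not tested.

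**Figure D4:**
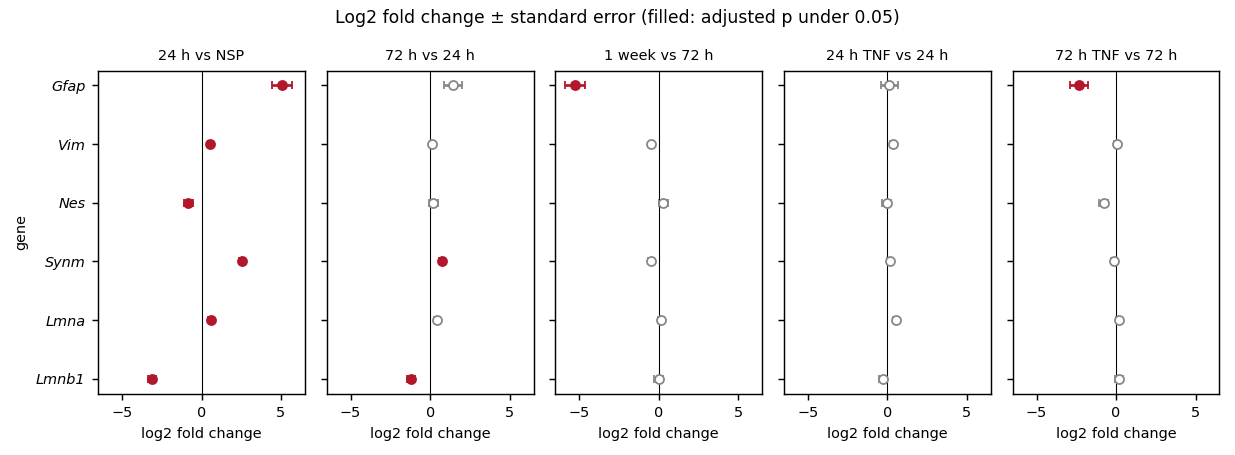
Log2 fold change ± standard error (x axes) of the 6 genes (y axis) in 5 comparisons (one panel each, edgeR over all 18 libraries), with filled red points for an adjusted p under 0.05. All 6 genes passed at 24 h against NSPs, and Gfap alone passed between 72 h and 1 week and for TNF at 72 h.

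TNF treatment left 0 of the 6 genes called at 24 h, where 3.5% of all genes were called, and 1 at 72 h. At 24 h 2 members, Vim and Lmna, had an unadjusted p under 0.05 in edgeR's test, and DESeq2 called none.

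Between 24 h and 72 h with TNF the replicate numbers were taken to pair the cultures, since deviations of same-numbered replicates correlated at 0.255 to 0.291. The labels do not state a pairing, and differently numbered replicates were not correlated. The first replicate stood apart in both conditions, so these correlations cannot tell a pairing from that. How many members were called depended on the fit. With the block over all 18 libraries 0 of the 6 were called. In the fit over all libraries, without pairs, none of the 6 was called (13.3% of all genes), while Synm and Lmnb1 had an unadjusted p under 0.05 and DESeq2 called none. The log2 fold changes were -0.997 ± 0.54 for Gfap, -0.69 ± 0.26 for Lmnb1, -0.54 ± 0.28 for Nes and 0.46 ± 0.19 for Synm. In a fit of these 6 libraries with the replicate number as a block, chosen after seeing the data, 12.7% of all genes and 3 members were called. Gfap fell by 1.09 ± 0.12 (edgeR, adjusted p = 0.0113), Lmnb1 by 0.66 ± 0.11 (adjusted p = 0.0265) and Nes by 0.58 ± 0.12 (adjusted p = 0.0398) on the log2 scale. Synm was 0.52 ± 0.16 in that fit (adjusted p = 0.0802).

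Within the pairs, the log2 difference of Gfap between 72 h and 24 h with TNF was -0.87, -1.09 and -1.38. That of Lmnb1 was -0.61, -0.70 and -0.74, and that of Nes was -0.93, -0.47 and -0.43. Of the 6 members 5, all but Lmna, moved one way in all 3 pairs, as did 53.5% of all tested genes. Without the block, leaving out 1 library moved the Gfap fold change from -2.11, without 72 h TNF replicate 1, to -0.075, without 24 h TNF replicate 1. Without both of these first replicates it was -1.24 (edgeR, adjusted p = 0.019), Synm was 0.72 (adjusted p = 0.00806) and Lmnb1 was -0.71 (adjusted p = 0.0494). With no filter on low counts 3 members were called, namely Gfap, Nes and Lmnb1. That fit took the spread of each gene wholly from the trend over 37635 genes. The share of all genes called is not given here for this fit or the one without the first replicates. Their calls are therefore not read as a result about the members.

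Against NSPs, all 6 genes were called in TNF-treated cultures at 24 h (54.5% of all genes) and at 72 h (61.9% of all genes), in the same directions as at 24 h without TNF, with NSPs as the control shared by these comparisons. Lmnb1 was 10.6-fold and 17.1-fold below NSPs. Gfap was above NSPs by 5.17 and 4.17 on the log2 scale, and by 4.28 and 3.04 without the first TNF replicates (edgeR, adjusted p = 9.9e-09 and 3.18e-07).

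Ordered by mean CPM over the 6 conditions, most neighbours did not differ beyond their spread. For Gfap the order was 72 h, 24 h TNF, 24 h, 72 h TNF, 1 week and NSP, and of these neighbours only 72 h TNF and 1 week differed (2.95 ± 0.58 on the log2 scale, edgeR, adjusted p = 0.00184; 14.6% of all genes were called). Without the first TNF replicates that difference was 1.81 (edgeR, adjusted p = 0.000604). For Synm and Lmna the only neighbours that differed were 24 h and NSP, at the bottom of the order, and for Lmnb1 they were NSP and 24 h, at its top. No neighbours differed for Vim, whose order was 24 h TNF, 72 h TNF, 72 h, 24 h, 1 week and NSP, or for Nes, whose order was NSP, 1 week, 72 h, 24 h, 24 h TNF and 72 h TNF.

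Genes for proteins that anchor or fold cytoplasmic filaments largely rose at 24 h, as Gfap, Vim and Synm did. Of 11 linkers and chaperones 10 were tested, and at 24 h 8 rose and 0 fell against NSPs (list median 1.47 on the log2 scale, 0.06 over all genes, of which 27.2% rose and 25.5% fell). Without NSP replicate 1 the counts were again 8 and 0. Plec encodes plectin, which ties filaments to other structures, and rose from 18.3, 51.0 and 50.9 CPM to 630, 507 and 838 CPM (log2 fold change 4.04 ± 0.37, edgeR, adjusted p = 8.16e-08). The small heat shock protein genes Hspb8 and Cryab, whose products act as chaperones, rose by 5.89 ± 0.29 (adjusted p = 6.14e-11) and 3.65 ± 0.24 (adjusted p = 1.78e-09). Plec and Hspb8 were highest at 24 h and then fell by 1.75 and 1.01 on the log2 scale to 72 h, while Gfap was highest at 72 h. Eppk1, the gene of epiplakin, rose by 2.46 ± 0.41 from a mean of 0.405 CPM.

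With TNF at 72 h 2 of these genes were higher and 2 lower, where 4.35% of all genes were higher and 5.21% lower. Cryab was 83.5, 100 and 105 CPM with TNF and 166, 206 and 258 CPM without it, with no overlap (log2 fold change -1.12 ± 0.22, edgeR, adjusted p = 0.00249). Hspb8 was lower by 0.79 ± 0.23 (adjusted p = 0.0369). Eppk1 and Dst, which encodes the linker dystonin, were higher, by 1.53 ± 0.34 and 0.53 ± 0.13 (adjusted p = 0.00603 and 0.0129). Without the first TNF replicates 3 were higher and 2 lower.

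The partners of the lamina at the nuclear envelope moved in both directions. Of 16 genes, all tested, 2 rose and 7 fell at 24 h against NSPs, and 5 rose and 8 fell at 1 week (medians -0.33 and -0.34, against 0.06 over all genes in both, of which 29.6% rose and 29.1% fell at 1 week). Without NSP replicate 1 the counts were 2 and 8 at 24 h and 4 and 8 at 1 week. Lmnb2, the gene of the other B-type lamin, fell with Lmnb1, from 63.0, 45.2 and 46.4 CPM in NSPs to 15.8, 19.7 and 17.4 CPM at 24 h (log2 fold change -1.54 ± 0.21, edgeR, adjusted p = 9.06e-06). Its decrease was smaller in size than the -3.12 of Lmnb1, a difference that was not tested. Nup210, which encodes a nuclear pore membrane protein, fell by 2.57 ± 0.19 at 24 h, and Lbr, the gene of the lamin B receptor, by 1.95 ± 0.24. Tmpo and Banf1, whose products bind chromatin at the lamina, fell by 1.77 ± 0.18 and 1.66 ± 0.21.

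In the linker of nucleoskeleton and cytoskeleton complex, which joins the lamina to the cytoplasmic filaments, 4 genes (Sun1, Sun2, Syne1 and Syne3) rose and Syne2 fell at 1 week, and without NSP replicate 1 Syne1 was not called. These 5 were singled out of the 16 after their values were seen. Syne3, whose product nesprin-3 binds plectin, rose from 0.254, 0.275 and 0.114 CPM in NSPs to 5.65, 6.52 and 5.14 CPM at 1 week (log2 fold change 4.71 ± 0.35, edgeR, adjusted p = 2.3e-09). Sun1 and Sun2, inner membrane proteins of the complex, rose from means of 76.6 and 69.2 CPM to 163 and 116 CPM at 1 week (adjusted p = 8.33e-08 and 0.000623). With TNF at 72 h Syne1 and Syne2, the genes of nesprin-1 and nesprin-2, were higher by 0.83 ± 0.17 and 0.56 ± 0.15 (adjusted p = 0.00328 and 0.0266), 2 of the 16 where 4.35% of all genes were higher. Syne1 alone was called without the first TNF replicates. At 24 h with TNF Nup210 was the only 1 of the 16 called, where 3.5% of all genes were called, lower by 0.77 ± 0.19 (adjusted p = 0.0249).

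**Figure D5:**
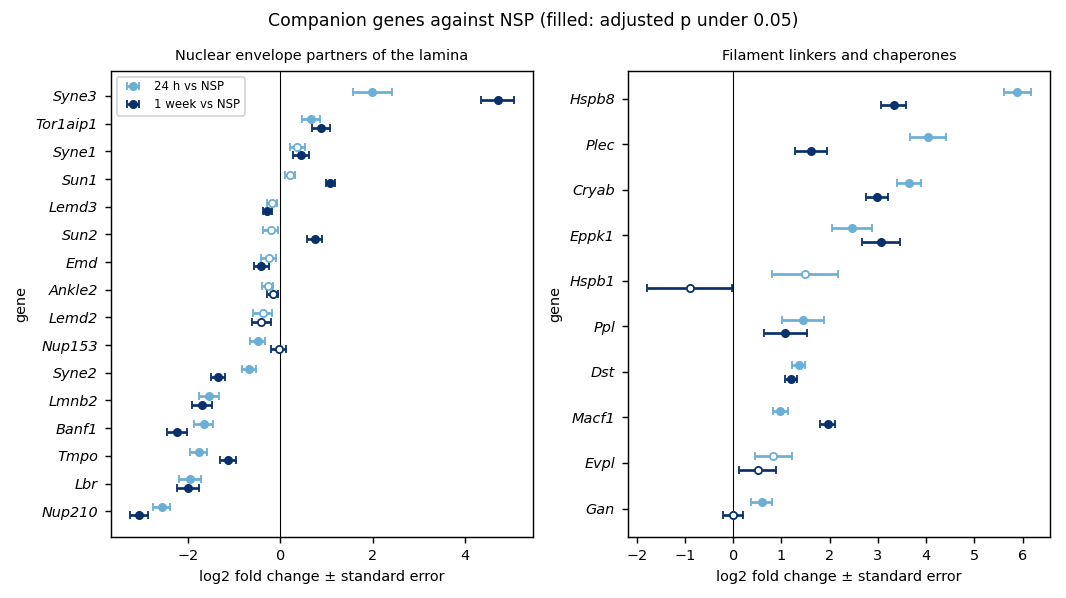
Log2 fold change ± standard error (x axes) against NSPs at 24 h (light) and 1 week (dark) for 16 nuclear envelope partners of the lamina (left) and 10 filament linkers and chaperones (right), with filled points for an adjusted p under 0.05 in edgeR. On the left genes lie on both sides of 0, and on the right all 8 genes called at 24 h are above 0.

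Of 6 genes whose products process or bind prelamin A, all tested, 0 rose and 2 fell at 24 h against NSPs, and 2 rose and 3 fell at 1 week. Of all genes, 27.2% rose and 25.5% fell at 24 h, and 29.6% rose and 29.1% fell at 1 week. Without NSP replicate 1 the counts were 0 and 2 at 24 h and 1 and 3 at 1 week. Zmpste24, the protease that cleaves prelamin A, was 122, 82.8 and 80.0 CPM in NSPs and 70.7, 69.1 and 68.4 CPM at 24 h (log2 fold change -0.45 ± 0.14, edgeR, adjusted p = 0.0119). Zmpste24 was not called without NSP replicate 1, its highest value. At 1 week Fntb, a subunit of the farnesyltransferase that acts on prelamins, was lower than in NSPs by 0.64 ± 0.18, the prelamin-binding Narf by 1.01 ± 0.23 and the protease gene Rce1 by 0.62 ± 0.18, while Icmt and Fnta were higher by 0.45 ± 0.15 and 0.38 ± 0.15. The call of Fnta was lost without NSP replicate 1.

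Other intermediate filament genes were scarce. Of 12 listed, 7 did not pass the filter on low counts, namely Des, Nefl, Nefh, Krt8, Krt18, Krt19 and Bfsp1. Of the 5 tested, Sync, the gene of syncoilin, rose from 2.54, 1.04 and 1.14 CPM in NSPs to 7.25, 6.43 and 8.96 CPM at 24 h (log2 fold change 2.27 ± 0.30, edgeR, adjusted p = 5.03e-06) and to a mean of 12.2 CPM at 1 week. Ina, Bfsp2 and Nefm, which encode neuronal and lens filament proteins, fell at 1 week, from means of 3.12, 6.46 and 0.961 CPM in NSPs. Their log2 fold changes against NSPs were -3.20, -2.87 and -1.52. In all, 1 rose and 0 fell at 24 h, and 1 rose and 3 fell at 1 week. Of all genes 27.2% rose and 25.5% fell at 24 h, and 29.6% rose and 29.1% fell at 1 week. Without NSP replicate 1 the counts were 1 and 1 at 24 h and 1 and 3 at 1 week, of 6 tested.

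The genes most like each member were found by the root mean square difference between centred log2 levels over the 6 condition means, among tested genes with a mean of at least 1 CPM. The smallest differences were 0.08 for Lmna (Ntn4) and for Vim (Plekha2), 0.10 for Lmnb1 (Mcm3), 0.12 for Nes (Hist1h2ac) and for Synm (Ccdc148), and 0.84 for Gfap (Fam187a). Mcm3 encodes a subunit of the replicative helicase, and its mean level was 141 CPM in NSPs, 15.7 CPM at 24 h and 7.56 CPM at 72 h. Second in likeness to Synm was Il6st, the gene of the signalling subunit of receptors for interleukin-6 family cytokines, with means of 162 CPM in NSPs, 1197 CPM at 24 h and 1948 CPM at 72 h. Second in likeness to Nes was Pkm, the pyruvate kinase gene, with means of 1178 CPM in NSPs and 583 CPM at 24 h. No gene followed Gfap as closely as others followed the rest. Fam187a, its nearest in pattern, lies 604 bases from Gfap on the opposite strand and had means of 0.189 CPM in NSPs, 6.29 CPM at 72 h and 0.727 CPM at 1 week.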

How the data were processed

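Stranded libraries were made by the authors from total RNA of 18 cultures after removal of ribosomal RNA. The paper reports a wide range of RNA quality numbers and gives none per library. The part of RNA quality in the differences between libraries was not tested. The authors trimmed the reads with Trim Galore, aligned them with STAR (mm10 per the submitters' processing notes), counted them per gene with featureCounts and deposited raw counts. Tool versions and the strand setting are not given in the sources used here. Of 54838 gene identifiers, 54809 were found in GENCODE M21, the source of names, positions and exon lengths. Promoter windows came from RefSeq (5 of the 6 members had one).

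Counts were analysed with edgeR 4.0.16 in R 4.3.3: TMM factors, edgeR's filter by condition, and a quasi-likelihood test with 1 mean for each condition, fitted to the 18 libraries together, for 15 pairs of conditions and the interaction of TNF and time, Benjamini-Hochberg adjusted over 20067 genes at a threshold of 0.05. Standard errors are the log2 fold change divided by the square root of F. Likeness used log2 CPM with a prior count of 2. Depth covers no more than counting error, and reads are not independent molecules. Between replicates the chi-square per degree of freedom was 4.08 to 62.7, above sampling noise, and all 18 libraries were kept as separate samples. Figures were drawn with matplotlib 3.10.9.

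The 6 genes and the companion and marker lists were chosen with earlier results of these data known. The genes named are the 6 members, called genes of the companion lists (up to 4 per list and comparison by size of change), and the genes nearest to each member in pattern, pseudogenes and unnamed genes skipped. Lmnb2 and Fnta, outside this rule, were named after their values were seen. Nfkbia, Aqp4, Gja1, Slc1a3, Acta2 and the cell type markers are named as checks of the labels and libraries, and some of them were chosen after their values were seen.

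Alternatives were RLE normalization, DESeq2 1.42.0, no filter on low counts, a fit to the compared conditions alone, a block for the replicate number, and leaving out each library. Added after seeing the data were a minimum of 5 counts summed over libraries and fits without the first TNF replicates, and for companions without NSP replicate 1. Replicate numbers come from the labels, and the column of 72 h replicate 3, numbered otherwise in the table, was matched by its library index. Over the 10 pairs of conditions checked, the deviations of same-numbered replicates correlated above 0.1 in all 3 pairs in 1 case, 24 h TNF and 72 h TNF (0.255 to 0.291), and the numbers were taken to pair the samples there. The block is therefore an alternative, added after seeing the data for those 6 libraries alone and planned for the 18.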

Additional observations from a re-analysis of the deposited data

How the results depend on the processing

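All 31 called of 67 member fold changes reported kept their direction in every alternative run, and 4 lost the call when 1 library was left out, as given with Gfap, Nes and Lmna. RLE normalization and a minimum of 5 counts in total changed no call among the 67. The replicate block over all conditions changed no member call and moved no count of called genes by over 1.5 times. Between 24 h TNF and 72 h TNF, where the numbers were taken to pair the samples, it called 2482 genes against 2670. With only these 6 libraries and their block, 2311 genes and 3 members were called. The block over all conditions put the uncalled Gfap difference for TNF at 24 h at -0.024.

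The directions that turned were all of uncalled differences. Without the first TNF replicates the TNF differences at 24 h were -0.77 for Gfap, 0.15 for Nes and -0.15 for Synm, and Lmna from 24 h to 72 h with TNF was -0.042 (log2). Lmnb1 from 72 h to 1 week was 0.019 with no filter. With 1 library left out, the lowest and highest values were -0.78 and 0.45 for Gfap, -0.18 and 0.14 for Nes and -0.16 and 0.34 for Synm with TNF at 24 h, -0.067 and 0.16 for Vim with TNF at 72 h, -0.11 and 0.22 for Lmna from 24 h to 72 h with TNF, -0.094 and 0.041 for Lmnb1 from 72 h to 1 week, and -0.45 and 0.060 for Synm in the interaction.

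Genes called from 72 h to 1 week numbered 1331, and 2032 with no filter, 2001 with only these conditions fitted and 610 to 1373 with 1 library left out. For TNF at 24 h they were 703, 1374 with no filter and 360 to 741 with 1 library left out. For TNF at 72 h they were 1919, 1277 with only these conditions and 965 to 2922 with 1 library left out. From 24 h to 72 h with TNF they were 2670, 828 with only these conditions and 1233 to 3802 with 1 library left out. In the interaction they were 92, 244 with DESeq2, 554 with no filter, 38 with only these conditions and 25 to 133 with 1 library left out.

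Of the 6 members, 1 was called from 72 h to 1 week, 2 with DESeq2, 2 with no filter, 2 with only these conditions and 1 to 2 with 1 library left out. With no filter 1 was called for TNF at 24 h, 2 for TNF at 72 h, 3 from 24 h to 72 h with TNF and 2 in the interaction. Calls over all genes rose there too, from 703 to 1374 for TNF at 24 h and from 92 to 554 in the interaction. Without the first TNF replicates 3 members were called from 24 h to 72 h with TNF and 1 in the interaction. The share of all genes called in those fits is not given here. With 1 library left out 0 to 1 members were called for TNF at 72 h, 0 to 2 from 24 h to 72 h with TNF and 0 to 1 in the interaction. The causes were not tested, beyond the spread that the fit with no filter takes from the trend of 37635 genes. The 1 member called for TNF at 24 h with no filter was Lmna. Depth limits Synm the most, whose lowest library held 55 counts.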
